A study of Mus musculus with 4 samples.

Results

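Circular RNAs of 4 host genes of growth factor and kinase signalling, Igf1r, Gab1, Mapkap1 and Map3k2, were described in C2C12, an established line of mouse myoblasts, which differentiate and fuse on withdrawal of serum. The deposited files carry no gene symbols, so the 4 hosts were taken by mm9 position, as every circle wholly inside 4 windows on the host's strand, and no circle crossed a window's edge. They held 51 circles of 69136 in all, and 4 of 7127 hosts. Of the 51, 14 were exonic circles, in which a downstream exon end is joined back to an upstream exon start, and 37 were intronic circles, which lie inside 1 intron. The hosts were chosen with their read counts in view, so their levels and their differences between kinds of RNA are a description and carry no test.

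An exonic circular RNA forms when the splicing machinery joins the end of an exon to the start of the same or an earlier exon, which leaves a closed ring that exonucleases cannot enter from an end. The insulin-like growth factor 1 receptor, encoded by Igf1r, is a receptor tyrosine kinase through which IGFs drive growth and differentiation of muscle cells. Gab1 encodes a docking protein that is phosphorylated below receptor tyrosine kinases and gathers downstream enzymes, Mapkap1 encodes SIN1, a core subunit of the kinase complex mTORC2 that phosphorylates AKT, and Map3k2 encodes MEKK2, a kinase at the head of MAP kinase cascades such as that of ERK5.

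All 4 libraries came from C2C12, a clonal line. The cells were taken at high density from medium with 10% fetal bovine serum into low-serum medium (2% horse serum) and kept there for 3 to 4 days to differentiate. Total RNA was sequenced in 2 libraries, labelled as control. The other 2 held RNA prepared by RPAD, in which RNase R (30 min) digests linear RNA, what is left of it is polyadenylated, and poly(A)+ RNA is removed. The labels name HeLa as the source of the RNA digested with RNase R although every library's cell line is given as C2C12, and nothing in them tells whether libraries of 1 group were separate cultures.

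Back-splice junction reads per library were 38850 (total RNA 1), 35981 (total RNA 2), 150478 (RPAD 1) and 191246 (RPAD 2). Exonic circles took 16179, 15392, 55971 and 91868 of them in the same order. These reads fell on 2067, 1821, 499 and 777 exonic circles, so the RPAD libraries had more reads but listed fewer exonic circles. Host levels are given below as reads per 100000 exonic back-splice reads of a library, so they are relative to the other exonic circles and not to the RNA of the cell. On the scale of reads per 100000, 3 reads, about the one-sided 95% limit for a count of 0, stand for 18.5, 19.5, 5.36 and 3.27. The RPAD libraries listed few of the same circles: of 1155 exonic circles found in either, 121 (10.5%) were found in both, and the correlation of log2 CPM across the 924 circles tested was 0.0581 between the RPAD libraries against 0.463 between those of total RNA. Among the 4 hosts, 7 exonic circles were found in an RPAD library and 0 in both. Circles missing from a file count as 0 reads, and the transcript models against which junctions were called differ by library. A junction that was not sequenced and one that was not in the models therefore cannot be told apart, unless the library names a model that holds the junction.

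Igf1r gave a single exonic circle, made of exon 2 alone, in 3 of the 4 libraries. It lay at chr7:75148696-75149241 on the plus strand and was 546 nt long. Total RNA 1 held 67 of its reads, total RNA 2 held 29, RPAD 1 none and RPAD 2 held 70. Per 100000 exonic reads this was 414, 188, 0 and 76.2, which gave means of 301 ± 160 for the former group and 38.1 ± 53.9 for the latter (SD, n = 2 each). Both total RNA libraries stood above both RPAD libraries on the relative scale, while the raw counts of the groups overlapped. Here and for the hosts below, this order is a description only, since it was not counted over all hosts. The total RNA libraries themselves differed, with exact Clopper-Pearson 95% intervals of 321 to 526 and 126 to 270, which cover counting error only. Among hosts with exonic reads the circle put Igf1r at rank 33 of 1417 and 94 of 1278 in total RNA, and at 179 of 604 in RPAD 2.

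The exon 2 circle of Igf1r sat between introns of 50857 nt upstream and 160637 nt downstream in each of the 3 libraries' own models, and the latter is the longest next to any circle of the 4 hosts. Of 3838 exonic circles with an intron on both sides, 0.521% had a longer intron on either side, against a median of 6970.5 nt for the longer of the flanking introns. Intronic circles of Igf1r amounted to 3 single reads in total RNA 1, from 64 and 112 nt of intron 13 and from 120 nt of intron 15. They were 4.29% of that library's Igf1r reads (exact Clopper-Pearson 95% interval 0.893 to 12.0%), and total RNA 2 and RPAD 2 had none among 29 and 70 reads.

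**Figure D1:**
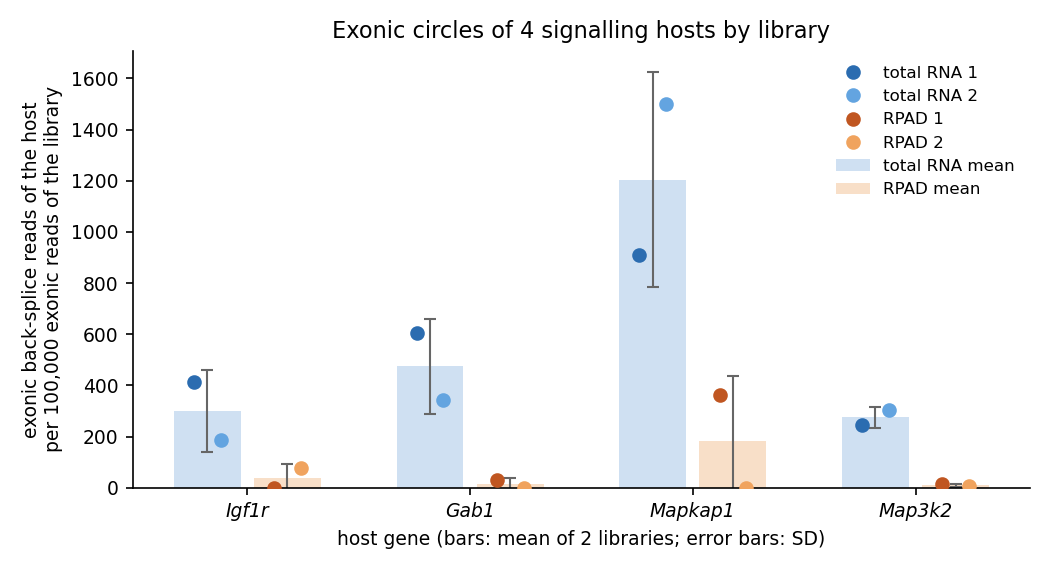
Exonic back-splice reads of each host per 100000 exonic reads of the library (vertical axis), with points for the 4 libraries, bars for the mean of each group and error bars for the SD (n = 2), cut off at 0 where the SD exceeds the mean. Both total RNA points lie above both RPAD points for each host, and Igf1r, Gab1 and Mapkap1 each have an RPAD library at 0. The 4 hosts were chosen with these reads in view, and how many other hosts show this order was not counted. Among the 67 circles that reached 20 reads in each total RNA library, 36 (53.7%) showed it, so it is not particular to these hosts' circles.

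Gab1 gave 4 exonic circles and no intronic one, all cut from exons 2 to 6 of transcript ENSMUST00000034150 on the minus strand of chromosome 8. The exons are 295, 226, 605, 86 and 304 nt long. The circle of exons 2 to 6 (chr8:83308526-83324294, 1516 nt) led, with 61 reads from total RNA 1, 35 from total RNA 2, 18 from RPAD 1 and 0 from RPAD 2. The circle of exons 3 to 6 (chr8:83308526-83315513, 1221 nt) had 33 reads from total RNA 1, 4 from total RNA 2 and none from RPAD. That of exons 2 to 4 (chr8:83312389-83324294, 1126 nt) had 3 reads from total RNA 1, 14 from total RNA 2 and again none from RPAD. The circle of exons 3 and 4 (831 nt) was a single read in total RNA 1. The 4 circles thus combine 2 back-splice acceptors, exons 2 and 3, with 2 donors, exons 4 and 6, in every pairing.

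The longest Gab1 circle held most of the host's exonic reads in each library that had any. Exons 2 to 6 took 62.2% (51.9 to 71.8%, 61 of 98 reads) and 66.0% (51.7 to 78.5%, 35 of 53 reads), with exact Clopper-Pearson 95% intervals, and 100% of 18 reads in RPAD 1 (81.5 to 100%). Exons 3 to 6 took 33.7% (24.4 to 43.9%) in total RNA 1 and 7.55% (2.09 to 18.2%) in total RNA 2. Exons 2 to 4 went the other way, with 3.06% (0.636 to 8.69%) and 26.4% (15.3 to 40.3%). The back-splice entered at exon 2 in 65.3% and 92.5% of Gab1 reads in total RNA and left at exon 6 in 95.9% and 73.6%.

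In all, Gab1 reads came to 606 (total RNA 1), 344 (total RNA 2), 32.2 (RPAD 1) and 0 (RPAD 2) per 100000 exonic reads, with means of 475 ± 185 and 16.1 ± 22.7 (SD, n = 2 each). The host ranked 20 of 1417 and 38 of 1278 in total RNA and 240 of 389 in RPAD 1. The groups did not overlap, in raw reads or on the relative scale, with no count over all hosts to set beside this. The intron before exon 2 is 79136 nt long, and 3.28% of exonic circles have a longer flanking intron. The intron before exon 3, the other acceptor, is 8486 nt, and those after the donor exons 6 and 4 are 9599 and 3303 nt.

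**Figure D2:**
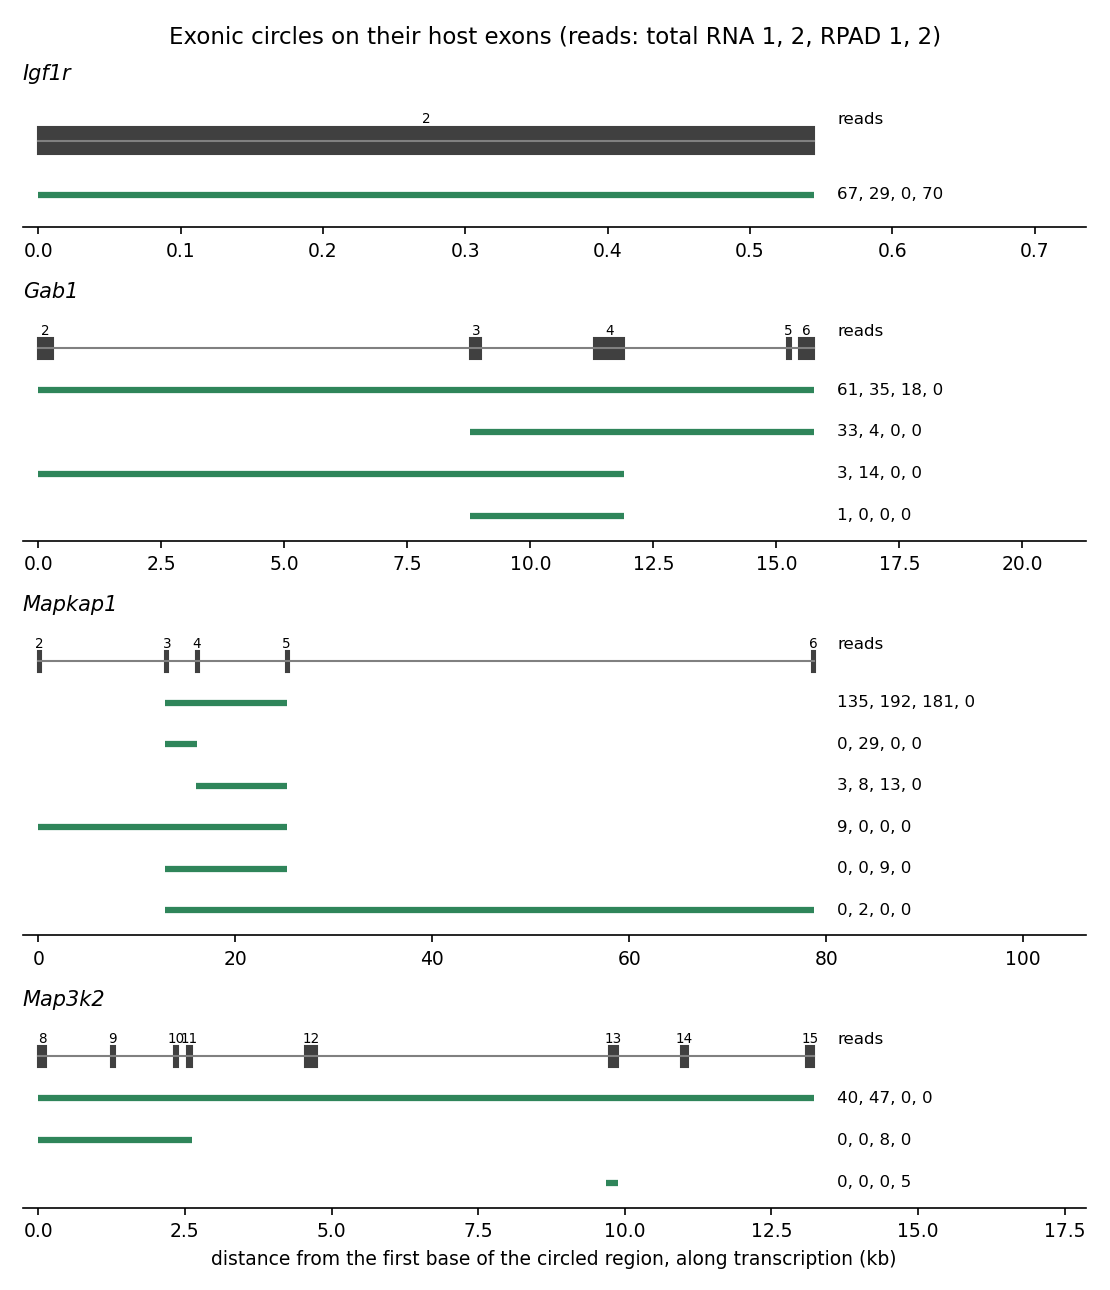
Exonic circles of each host (green lines) beneath the exons of the host's model (grey boxes with exon numbers), drawn by distance in kb from the first base of the circled region along transcription, with introns as thin lines. The numbers at the right are back-splice reads by library (total RNA 1 and 2, then RPAD 1 and 2), and in each host except Igf1r several circles share a start or an end.

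Mapkap1 was the most abundant of the 4 hosts in total RNA, and 1 circle made up most of it. That circle (chr2:34287523-34299926, plus strand) joins 3 exons of 328, 90 and 149 nt into 567 nt, exons 3 to 5 of the model used in the total RNA libraries and exons 2 to 4 of the model in RPAD 1. Total RNA 1 held 135 of its reads, total RNA 2 held 192, RPAD 1 held 181 and RPAD 2 none. It took 91.8% (86.2 to 95.7%), 83.1% (77.7 to 87.7%) and 89.2% (84.1 to 93.1%) of the Mapkap1 exonic reads in the 3 libraries that listed it (exact Clopper-Pearson 95% intervals). The share held in RPAD 1 thus lay between those of the total RNA libraries.

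The other 5 exonic circles of Mapkap1 were variants around the same exons. The circle of the last 2 of them (chr2:34290653-34299926, 239 nt) had 3, 8, 13 and 0 reads, and it was the only minor circle of the host found in more than 1 library. A circle of the first 2 (chr2:34287523-34290742, 418 nt) had 29 reads in total RNA 2, 12.6% of that library's Mapkap1 reads (8.57 to 17.5%), and 0 of 147 in total RNA 1, which allows up to 2.48%. A circle that took in 1 more exon upstream (725 nt) had 9 reads in total RNA 1, and one that took in 1 more downstream (740 nt) had 2 reads in total RNA 2. The last (569 nt) had 9 reads in RPAD 1 and differs from the leading circle only by an end 2 nt farther on, the end of the last exon in a different model. That model gives no intron after this end, and the 9 reads are counted here as a separate circle. Together, 91.8%, 96.5% and 93.6% of reads entered at the start of the leading circle, and 100%, 86.6% and 95.6% left at its end.

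Per 100000 exonic reads Mapkap1 stood at 909 (total RNA 1), 1501 (total RNA 2), 363 (RPAD 1) and 0 (RPAD 2). The group means were 1205 ± 419 and 181 ± 256 (SD, n = 2 each). Mapkap1 ranked 8 of 1417 hosts in total RNA 1 and 4 of 1278 in total RNA 2, the highest ranks of the 4, and 64 of 389 in RPAD 1. Raw reads overlapped between groups, with 203 in RPAD 1 between the 147 and 231 of total RNA. The RPAD libraries lay far apart: RPAD 2, the deeper of the 2, had no read, which allows up to 3.27 per 100000. The introns on either side of the leading circle depend on the model, 12737 and 53294 nt in the total RNA libraries but 24748 and 7220 nt in RPAD 1. The longer of these is exceeded by 6.59% and 20.2% of exonic circles. Intronic circles of Mapkap1 were few, 3 circles of 119 to 335 nt with 5 reads in all, and were listed in total RNA only.

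**Figure D3:**
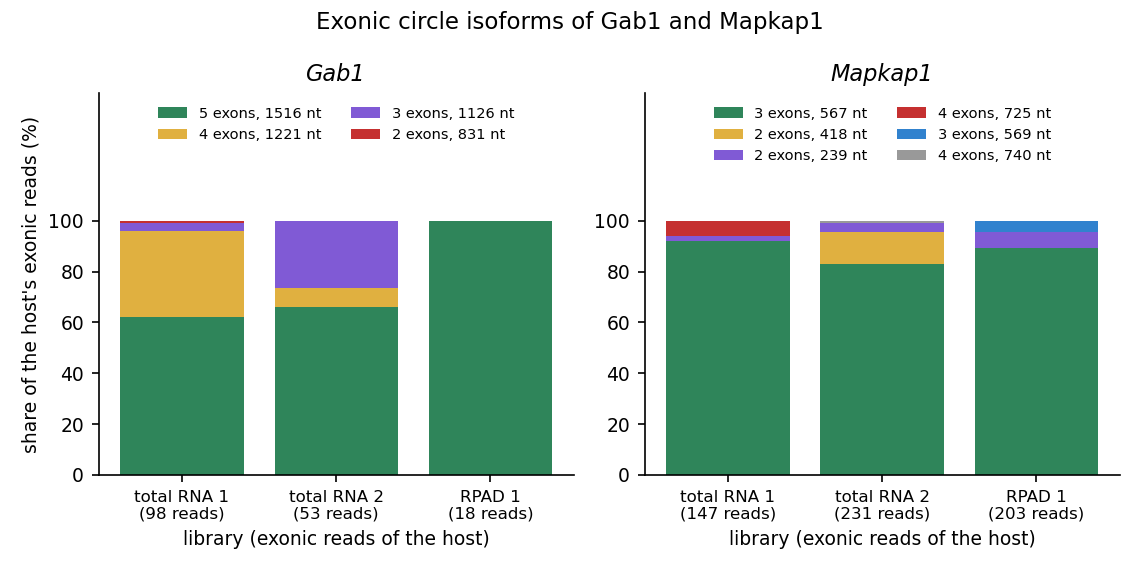
Share of the host's exonic back-splice reads (vertical axis, percent) taken by each exonic circle of Gab1 (left) and Mapkap1 (right) in the libraries with reads of that host, with the number of reads under each bar. The largest segment is the same circle in every bar, 62.2 to 100% for Gab1 and 83.1 to 91.8% for Mapkap1, while the smaller segments change from library to library.

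In total RNA the reads of Map3k2 all came from 1 circle of exons 8 to 15 of ENSMUST00000096575 (chr18:32367062-32380288, plus strand, 990 nt), with 40 and 47 reads. In the RPAD libraries that circle had 0 and 0 reads. Against a floor of 3 reads over the group, that is a bound of 135.8-fold lower than in total RNA, for counting error alone. The bound takes the total RNA reads as counted, and it was 84.4-fold without RPAD 1 and 51.4-fold without RPAD 2. It does not cover the differences between RPAD libraries, or a junction absent from a library's models. For its own Map3k2 circle RPAD 1 named ENSMUST00000096575, the model of the 8-exon circle in total RNA 1, while RPAD 2 named a different model. RPAD 1 instead listed a circle of exons 8 to 11 (chr18:32367062-32369690, 372 nt) with 8 reads, which shares its start with the 8-exon circle. RPAD 2 listed a single-exon circle (chr18:32376745-32376946, 202 nt) with 5 reads. This is the first exon of an assembled model, and it ends where exon 13 ends and begins 53 nt before it. The RPAD libraries thus shared no Map3k2 circle with each other or with total RNA, where 80.9% of all exonic circles were listed in a single library. Both RPAD circles carry a junction score of 1, while every other exonic circle of the 4 hosts has a score of 0. What the score means was not given in the sources used here.

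Map3k2 totals per 100000 exonic reads were 247 (total RNA 1), 305 (total RNA 2), 14.3 (RPAD 1) and 5.44 (RPAD 2), with means of 276 ± 41.1 and 9.87 ± 6.26 (SD, n = 2 each). It was the only one of the 4 hosts with exonic reads in every library. Its groups did not overlap, again with no count over all hosts. Its ranks were 66 of 1417 and 49 of 1278 in total RNA, and 279 of 389 and 393 of 604 in RPAD. The introns that flank the 8-exon circle are the shortest around any of the 4 leading circles, 3520 nt upstream and 5917 nt downstream, and 53.6% of exonic circles have a longer one.

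Intronic circles made up 92.8% of Map3k2 reads in RPAD 2 (64 of 69 reads, exact Clopper-Pearson 95% interval 83.9 to 97.6%) and 0% in the other 3 libraries. Over all hosts they were 52.0% of reads in RPAD 2 and 57.2 to 62.8% in the others. The 0% elsewhere rests on 40, 47 and 8 reads, which allow up to 8.81, 7.55 and 36.9%. Of the 31 circles, 29 with 61 reads lay in the 1067 nt intron after exon 13 (chr18:32376947-32378013), inside the span of the 8-exon circle, and 2 with 3 reads lay in the next intron. The 29 all begin at the 5′ splice site and are 134 to 216 nt long, with a median of 177 nt weighted by reads. Their ends fall 851 to 933 nt before the 3′ splice site, so the longest covers 20.2% of the intron. Single reads made up 15 of the 29, and the most reads, 9, fell on each of 2 circles, of 167 and 200 nt. The single-exon circle of RPAD 2 ends at the base before this intron.

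Many circles in 1 intron were common in RPAD 2. It listed circles in 1672 introns, with a median of 8 circles and 14 reads in each, and 300 of these introns (17.9%) held at least 29 circles. Intronic circles in the 4 libraries had a median length of 155 nt, a median gap of 1039 nt to the 3′ splice site, and 1.66% ended within 100 nt of it. The 31 Map3k2 circles all carried a score of 1, where 35.6% of intronic circles of RPAD 2 had a score of 1 or more.

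**Figure D4:**
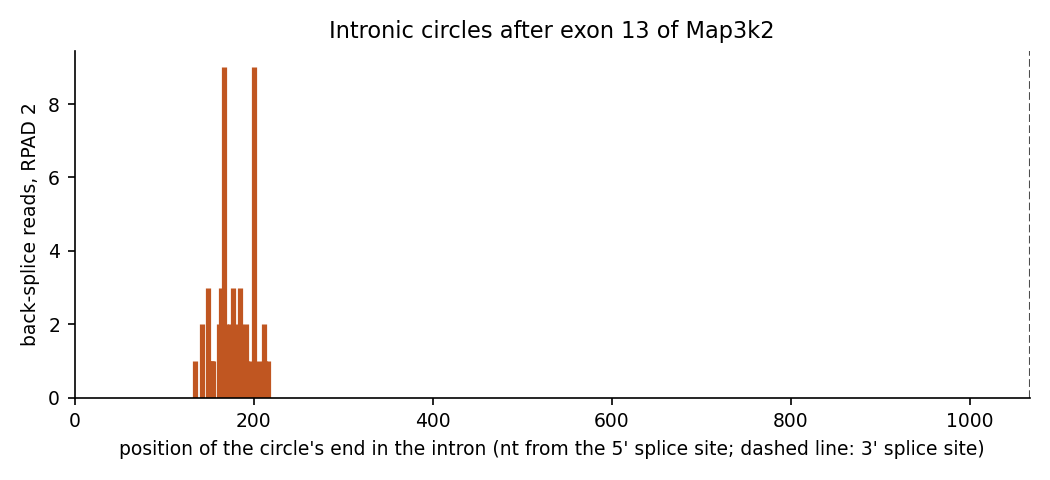
Back-splice reads in RPAD 2 (vertical axis) by the position of the circle's end in the Map3k2 intron after exon 13, in nt from the 5′ splice site (horizontal axis), with the 3′ splice site as a dashed line. The 29 circles all end between 134 and 216 nt, and no end lies in the rest of the 1067 nt.

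None of the 4 leading circles was found in both RPAD libraries. They are among the 67 exonic circles that reached 20 reads in each library of total RNA. Of these 67, 35 were listed in both RPAD libraries, 20 in 1 of them and 12 in neither. The leading circles of Gab1 and Mapkap1 were found in RPAD 1 only, as were 8 of the 67. That of Igf1r was found in RPAD 2 only, as were 12, and that of Map3k2 in neither. A share of exonic reads below both total RNA libraries in both RPAD libraries was seen for 36 of the 67 (53.7%) and for 4 of the 4 leading circles, a count from which nothing is read since the hosts were chosen on these reads.

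In length the leading circles ranged from 546 nt for Igf1r to 1516 nt for Gab1, against a median of 513 nt over all exonic circles and 786 nt over the 67. The longer flanking intron was 160637 nt for Igf1r, 79136 nt for Gab1, 53294 nt for Mapkap1 in the total RNA model and 5917 nt for Map3k2, with a median of 21452 nt over the 66 of the 67 that have 2 flanking introns. Spliced length was a multiple of 3 in the leading circles of Igf1r, Mapkap1 and Map3k2 and not in that of Gab1. It was so in 6 of the 14 exonic circles of the 4 hosts, in 29 of the 67 (43.3%) and in 41.0% of all exonic circles. The circles of Igf1r and Gab1 that begin at exon 2 belong to a common class, since 25.1% of exonic circles begin at exon 2 of their model. Of the 14 exonic circles, 7 were listed in 1 library, 3 in 2, 4 in 3 and none in 4, and 80.9% of all exonic circles were listed in 1.

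**Figure D5:**
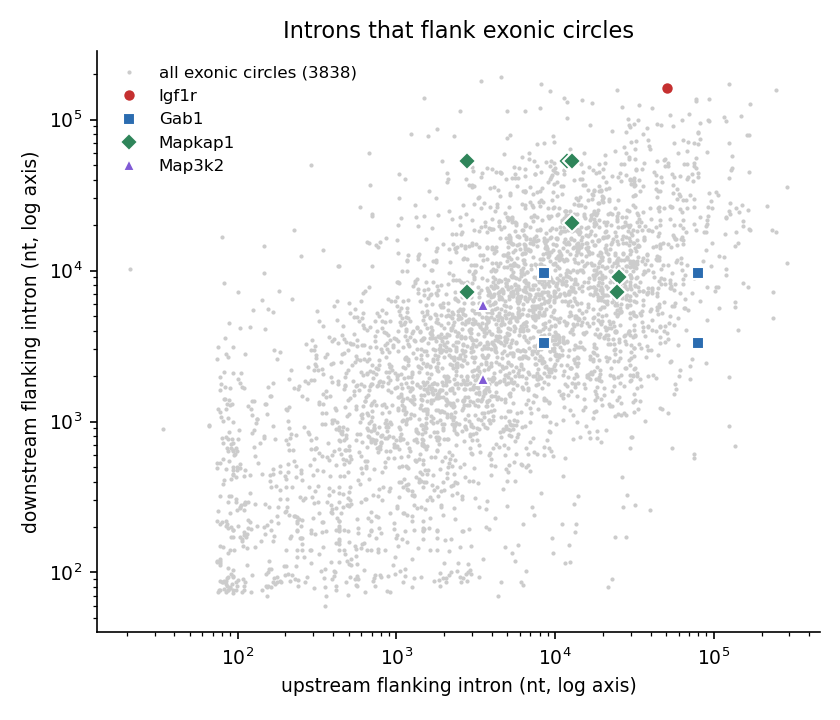
Upstream (horizontal, log axis) and downstream (vertical, log axis) flanking intron lengths in nt of 3838 exonic circles with 2 flanking introns (grey), with those of the 4 hosts in colour, 1 marker for each distinct pair of lengths within a host. Igf1r lies at the upper right with 160637 nt downstream, and the Map3k2 markers lie within the densest part of the grey points.

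The fits across all circles and hosts are given for completeness, with no reading for the 4 hosts. Only 7 of the 51 circles passed the low-count filter (1 of Igf1r, 3 of Gab1, 2 of Mapkap1 and 1 of Map3k2, none of the 37 intronic ones). The log2 fold change of RPAD against total RNA by edgeR was -2.94 (SE 2.87) for Igf1r, -5.62 (2.87) for Gab1, -3.55 (2.59) for Mapkap1 and -2.68 (2.19) for Map3k2, which counts intronic reads too, against a median of -1.09 over 1301 hosts. These host values turn on single RPAD libraries: without RPAD 1 they were -1.89, -10.52, -11.87 and -1.74, and without RPAD 2 they were -10.02, -4.60, -2.48 and -4.95, in the same order. The median over the 1301 hosts moved as well, to -2.87 without RPAD 1 and -5.74 without RPAD 2. Igf1r and Map3k2 were thus less negative than the median host without RPAD 1, as were Gab1, Mapkap1 and Map3k2 without RPAD 2. Hosts outside the 4 windows were linked by transcript name and not by window, so this median may count 1 gene more than once. For the 8-exon circle of Map3k2 alone the log2 fold change was -10.19, a value that depends on the prior count since both RPAD libraries are at 0. At an adjusted p under 0.05 edgeR called 0 of the 7 circles and 0 of the 4 hosts, beside 0% of 924 circles and 0% of 1301 hosts. At an unadjusted p under 0.05 it gave 162 circles and 368 hosts. DESeq2 called 1 of the 7 circles, the 8-exon circle of Map3k2, beside 2.06% of circles, and 0 of the 4 hosts beside 9.92% of hosts. Those shares are of all 924 circles and 1301 hosts, of which DESeq2 gave no adjusted p to 376 and 76. All 7 circles and 4 hosts had one. With a local dispersion fit, added after seeing the data, DESeq2 called 3 of the 7 circles and 1 of the 4 hosts. Beside these stood 163 of 924 circles and 392 of 1301 hosts. An exact two-sided permutation test of 2 against 2 libraries cannot give a p below 0.33.

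Hosts with the most similar levels were found by Euclidean distance over the 4 libraries of log2(exonic reads per 100000 + 1), among 2588 other hosts, and are given by mm9 position. For Igf1r this was a host at chr18:75239857-75286573 on the plus strand, at a distance of 0.56, with 56, 21, 0 and 80 exonic reads. For Mapkap1 it was a host at chr6:37853533-37893633 on the plus strand (1.57), with 77, 98, 171 and 0 reads. Map3k2 was nearest to a host at chr18:42447762-42485678 on the plus strand (1.87), with 19, 101, 17 and 4 reads. Gab1 had the most distant neighbour (2.19), at chr4:108735721-108775197 on the minus strand, with 57, 22, 56 and 0 reads. The nearest hosts of Igf1r, Gab1 and Mapkap1 are each listed at 0 in the same RPAD library as the host they resemble, which the distance itself favours.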

How the data were processed

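Each deposited file lists the circular RNAs of 1 library with the raw count of reads over each back-splice junction, per the file headers, and a junction score from 0 to 3 that the authors deposited and that was used to describe circles and to leave some out in alternatives, never in the tests as first run. The submitters' processing notes list mm9, Cufflinks 2.2.1, TopHat and cutadapt. The junction caller was not given in the sources used here. Per the labels' protocols, cDNA was amplified and given 17 PCR cycles, and no molecular identifiers are described, so the intervals and floors hold for counting error alone. Groups and replicate numbers came from sample titles. P-values therefore measure only how these libraries vary, and that variation may be technical.

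A circle was 1 combination of chromosome, start, end and strand, counted from 1. Circles outside the 4 windows were linked into hosts by shared transcript names. A window pools every name inside it, so the 4 hosts and the others are unlike units in ranks, medians and distances. Other genes may be split into several hosts. By names alone, the RPAD 2 circles of Map3k2 would form a host of their own. The files name 8067 transcripts, of which 0 matched the name tables at hand. RefSeq places the 4 genes on the same chromosomes (4 of 4). Genes of the same pathways and muscle markers could not be located without symbols and were not analysed here, and no circle sequence is printed.

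Counts were tested with edgeR 4.0.16 (quasi-likelihood F test, TMM, Benjamini-Hochberg adjustment, features kept by filterByExpr at min.count 5 and min.total.count 10) in R 4.3.3, with DESeq2 1.42.0 as an alternative. Only the edgeR test was tried on simulated data. SEs of fold changes are back-calculated from the F statistic. Tables, intervals and plots were made with scipy 1.17.1, pandas 2.3.3, numpy 2.4.6 and matplotlib 3.10.9 in Python 3.11.15. The members and lists were chosen with earlier results of these data known. Exonic circles with at least 10 reads in a library or listed in 2 libraries are given in full, as are others of the same host where they complete its set, which were added after their values were seen.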

Additional observations from a re-analysis of the deposited data

How the results depend on the processing

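The 4 hosts kept a negative fold change, RPAD against total RNA, under every fit run. So did the 7 circles tested wherever the filter kept them (2 of the Gab1 circles were each dropped in 1 fit with the filter reapplied). Nothing is read from that sign, since the hosts were chosen on these reads. The median over all hosts was negative too, except with the filter reapplied without total RNA 1 (2.04) or without total RNA 2 (1.28). Counts of calls moved widely. DESeq2-style scaling in edgeR shifted the median over all tested features from -0.15 to 0.18 for circles and from -1.09 to -0.75 for hosts (log2). For circles edgeR gave 0 calls of 924, DESeq2 19, DESeq2 with a local dispersion fit (added after seeing the data) 163, and leaving out 1 library 0 to 214, with 184 without RPAD 1 and 214 without RPAD 2. For hosts edgeR gave 0 calls of 1301, DESeq2 129, DESeq2 with a local fit 392, no low-count filter 3, and leaving out 1 library 0 to 567, with 480 without RPAD 1 and 567 without RPAD 2. With the filter reapplied to the 3 libraries kept (also added), 0 circles were called in each of the 4 cases and 0 to 64 hosts. A lone library is assumed in such fits to vary like the other group. The fit with a replicate block gave 3 hosts and 0 circles. Deviations of same-numbered libraries correlated at 0.0463 over circles and 0.0374 over hosts, so with 2 pairs the numbers are not shown to pair the libraries. Circles listed fell to 1 for Igf1r at a minimum of 2 or 5 reads, to 5 for Mapkap1 at 5 reads, and for Map3k2 to 18 at 2 reads, 5 at 5 reads and 1 with a score of 0 only. Host reads with intronic ones counted too were also taken per 100000 reads of both kinds. The difference, RPAD minus total RNA, was then -112.1 for Igf1r, -193.8 for Gab1, -449.5 for Mapkap1 and -96.1 for Map3k2. In exonic reads per 100000 exonic reads it was -263.2, -458.9, -1023 and -266.4 in the same order. For Igf1r the difference in exonic reads was -150.3 without total RNA 1. With circles of at least 5 reads it was -315.2 for Map3k2. A count of 0 in total RNA allows up to 18.5 (library 1) or 19.5 (library 2) per 100000 exonic reads.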
